A study of Sus scrofa with 30 samples.

Results

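The genes described here move vitamin B12, folate, zinc and iron into, within and out of mammary cells: TCN1, FOLR1, SLC30A2, SLC30A4, SLC30A5, SLC39A8, SLC40A1, TFRC and FTH1. These 9 genes were chosen by name for what their proteins carry, with earlier results of these data known. Every reference transcript of theirs in the deposited table was taken. The table held 17 such transcripts among its 61773, belonging to 8 of the 9 genes. SLC30A2 had no row and was not analysed here. The annotation lists FOLR1 as a pair of adjacent gene records, so the 8 genes make 9 gene records. TCN1 is among the transcripts the study picked for a separate RT-qPCR measurement. The study also reported TCN1 and SAA3 as upregulated at peak lactation (PL) in these same sows. The inclusion of TCN1 was therefore not independent of these data, and its rise in PL was known beforehand.

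The samples were mammary parenchyma from multiparous half-sibling Danish Landrace × Yorkshire sows, 1 piece per animal taken below the third left teat, with 6 sows at each of 5 stages. MG tissue came from pregnant sows on day 70 and LG tissue from pregnant sows on day 110. EL sows had farrowed 2 days and PL sows 10 days before sampling, and W2 sows had been weaned for 2 days. No treatment other than the stage set the groups apart. The pieces were taken clear of fat and skin and were not sorted into cell types. Samples were grouped by their titles. The record of each sample also carries a stage name in another field. There the samples titled EL are called mid-gestation and those titled MG early lactation. Every result that names MG or EL therefore depends on which field is right. If the other field were right, the results of PL vs MG and PL vs EL would trade places. Milk protein genes took 1.19% to 2.95% of the units in samples titled MG and 6.40% to 12.1% in those titled EL. The study's supplementary list of reference gene levels groups the samples as the titles do. The stage names of PL and W2 are not touched by this conflict, and W2 vs PL does not depend on it.

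Milk is the only food of the suckling piglet, and the secretory cell loads it with vitamins and trace metals against steep gradients. Vitamin B12 and folate leave the gland bound to dedicated proteins, haptocorrin and folate receptor, which protect the vitamin and hand it to the piglet's gut. Zinc is pumped into the secretory pathway by transporters of the SLC30 (ZnT) family and brought into the cytosol by the SLC39 (ZIP) family. Iron is taken up from transferrin through the transferrin receptor, stored in ferritin and exported through ferroportin.

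Each value is a share of the RNA measured in its sample, in TPM, which scales every transcript for its length and every sample to the same total, and is here called units. The columns added up to between 997480 and 1002643 units. In every stage 3 of the 6 samples were nearly copies of each other, their pairs differing by a median of 1.62% to 1.85%, and their mean equalled the mean of the other 3 to within 0.741%, so they were left out and n = 3 throughout. Pairs among the 3 counted samples differed by 19.6% to 59.8%. The files give no reads per transcript, so the depth behind a value is unknown and its precision was taken from the spread between samples, which are 1 sow each. PL 2 stood apart from PL 3 and PL 6: the 6 milk protein genes took 28.5% of its units, against 13.9% and 9.14%, and 32 of the 3356 annotated genes with a median of at least 20 units were listed at 0 in it, against 6 and 10. The study lists more mapped reads for the library of PL 2 than for those of PL 3 and PL 6. Milk protein genes were present in all 15 samples (5781 units or more for the 6 genes), as were luminal epithelial markers (837 units or more for 6 genes).

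Differences between stages were concentrated on PL for the carrier genes, as they were for all genes. A gene was said to have passed when the adjusted p of its summed transcripts was below 0.05 in limma, with adjustment over all 26019 genes and assembled loci. In PL vs MG 4 of the 9 gene records passed, against 25.2% of all genes and loci: TCN1 and SLC39A8 were higher in PL (background 2.23% in that direction) and TFRC and SLC40A1 lower (23.0%). In PL vs LG 2 passed, TCN1 higher and TFRC lower, against 14.7% of all (1.62% higher and 13.1% lower). In PL vs EL the same 2 genes passed in the same directions, against 4.62% of all (0.776% higher and 3.85% lower). In W2 vs PL 5 passed, TFRC, SLC40A1 and SLC30A5 higher in W2 and TCN1 and SLC39A8 lower, against 32.8% of all (30.4% higher and 2.48% lower). These 4 comparisons share the PL samples and are not independent of each other.

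None of the 9 records passed in the 6 comparisons without PL, where limma called few of all genes and loci: 0.553% in W2 vs EL, 0.0346% in W2 vs LG, 0.0269% in EL vs MG, 0.0154% in EL vs LG, and 0.0115% in LG vs MG and in W2 vs MG. At an unadjusted p below 0.05 there was 1 record in EL vs MG, 1 in W2 vs EL and 0 in the other 4, against 15.9%, 25.1% and 3.09% to 7.56% of all genes and loci. Over all 5 stages at once, TCN1 (adjusted p = 0.00046) and TFRC (0.029) passed the moderated F test, 2 of 9 records against 18.3% of all genes and loci.

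All values are shares of a fixed total, and the median gene was lower in PL than elsewhere. The median log2 fold change of all genes and loci was -0.57 in PL vs MG, -0.45 in PL vs LG, -0.22 in PL vs EL and 0.68 in W2 vs PL. Each member's difference is therefore also given after subtracting this median, and a direction that turned when samples were rescaled by the median ratio of well-expressed transcripts is named where the direction is given.

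**Figure D1:**
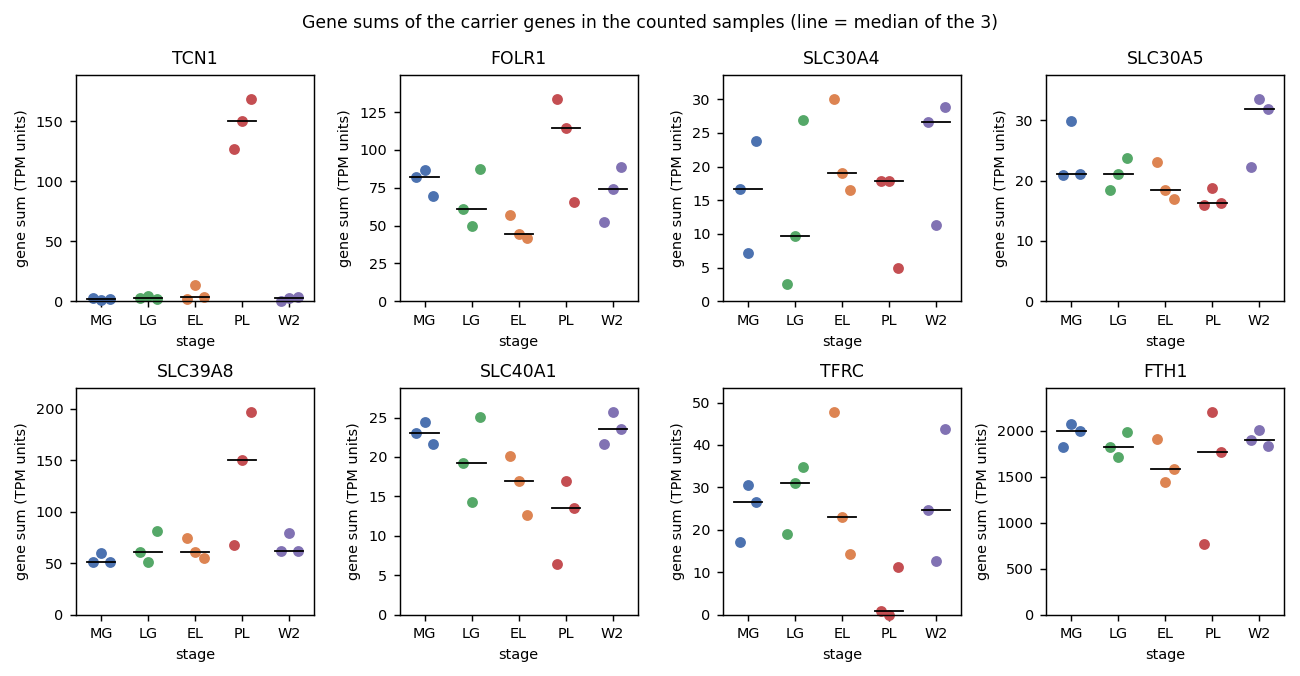
Summed TPM units of the reference transcripts of 8 carrier genes (y axis, linear from 0) in the 3 counted samples of each stage (x axis), 1 point per sample, with a line at the median of the 3. TCN1 stands at 127 to 169 units in PL and at 13.7 or less in the other 12 samples, while TFRC is lower in all 3 PL samples than in the other 12.

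**Figure D2:**
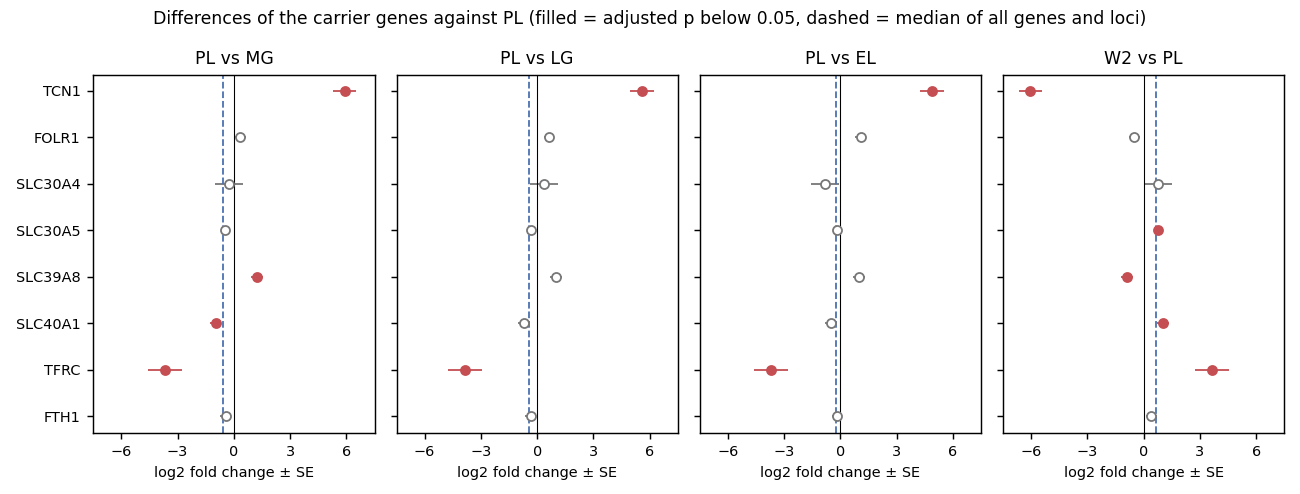
Log2 fold change ± SE of each gene sum (x axis) in the 4 comparisons with PL, in limma on log2(units + 0.5) with 3 samples per stage, filled where the adjusted p was below 0.05. The dashed line is the median of all 26019 genes and loci, which lies below 0 in the first 3 panels and above 0 in the last. SLC40A1 and SLC30A5 passed with differences close to that line, and TCN1 and TFRC lie far from it.

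TCN1 encodes haptocorrin, the B12-binding protein of milk, saliva and gastric juice, which is also stored in neutrophil granules. The gene lies on chromosome 2 of Sscrofa11.1 from 11633377 to 11646261. Its transcripts summed to 127, 150 and 169 units in PL 2, PL 3 and PL 6. In MG they summed to 2.99, 1.41 and 1.80 units, in LG to 2.43, 4.30 and 1.62, in EL to 1.54, 13.7 and 3.93, and in W2 to 0.555, 2.49 and 3.16. All 3 PL samples were above the other 12, which was true of 1.1% of all genes and loci, and the next highest sample was EL 4.

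TCN1 was 59.7-fold higher in PL than in MG on the log2(units + 0.5) scale (log2 fold change 5.90 ± 0.63 SE, adjusted p = 0.00015), and 6.47 above the median gene. The log2 difference was 5.58 against LG (adjusted p = 0.00035) and 4.88 against EL (0.0017). In W2 vs PL it decreased by 6.04 on the log2 scale (adjusted p = 0.00012). On the mean of the stage TCN1 moved from rank 10849 of 14958 annotated genes in MG to rank 338 in PL and back to rank 10995 in W2. The other 4 stages followed each other in the order EL, LG and then MG and W2, and no pair of them differed beyond their spread (smallest adjusted p = 0.27). All 4 calls of TCN1 held when any 1 of the 15 samples was left out.

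Nearly all of this signal lay on a single transcript. XM_021082977.1 held 100% of the TCN1 units in MG, LG and EL and 97.3% in PL, where it read 121, 144 and 169 units. The second transcript, XM_021082978.1, was listed at 0 in 12 of the 15 samples and reached 5.92 and 6.16 units in PL 2 and PL 3. XM_021082977.1 was a DET, that is an adjusted p below 0.05 with a log2 fold change of at least 2 in size, in all 4 comparisons with PL, where 1.76%, 1.09%, 0.408% and 2.84% of all transcripts were DETs (against MG, LG and EL, and in W2 vs PL).

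Several marker genes of other cells rose in the same samples as TCN1. Of 7 neutrophil markers 5 had a row, and MPO and CXCR2 had none. Their summed level ran from 9.31 to 47.2 units in PL and from 0.712 to 3.97 in the other 12 samples. The rise lay in S100A8, S100A9 and S100A12, calcium-binding proteins of neutrophils, monocytes and stimulated epithelium, which together gave 9.09, 15.5 and 46.4 units in PL and at most 2.03 elsewhere. ELANE, an enzyme of neutrophil granules, read 0.102, 0.342 and 0.194 units in PL against 0.253 to 1.24 in the other samples, and CSF3R, the receptor for the neutrophil growth factor, read 0.116, 1.53 and 0.673 in PL against 0.458 to 1.66 in the other samples. The part of neutrophil RNA in the TCN1 level was not tested. In bulk tissue, more cells of a type and more RNA per cell cannot be told apart, nor can fewer cells and less RNA per cell.

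Within PL the order of TCN1, as deposited, ran against that of milk protein RNA. PL 2 had the largest milk protein share (28.5%) and the lowest TCN1 (127 units), and PL 6 the smallest share (9.14%) and the highest TCN1 (169 units). This order turned under median ratio scaling, whose factors were 0.567 for PL 2, 0.841 for PL 3 and 0.840 for PL 6. Divided by its factor, TCN1 was highest in PL 2 and lowest in PL 3. EL 4 and EL 6 had milk protein shares of 12.1% and 10.4%, near or above that of PL 6, with TCN1 at 13.7 and 3.93 units.

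**Figure D3:**
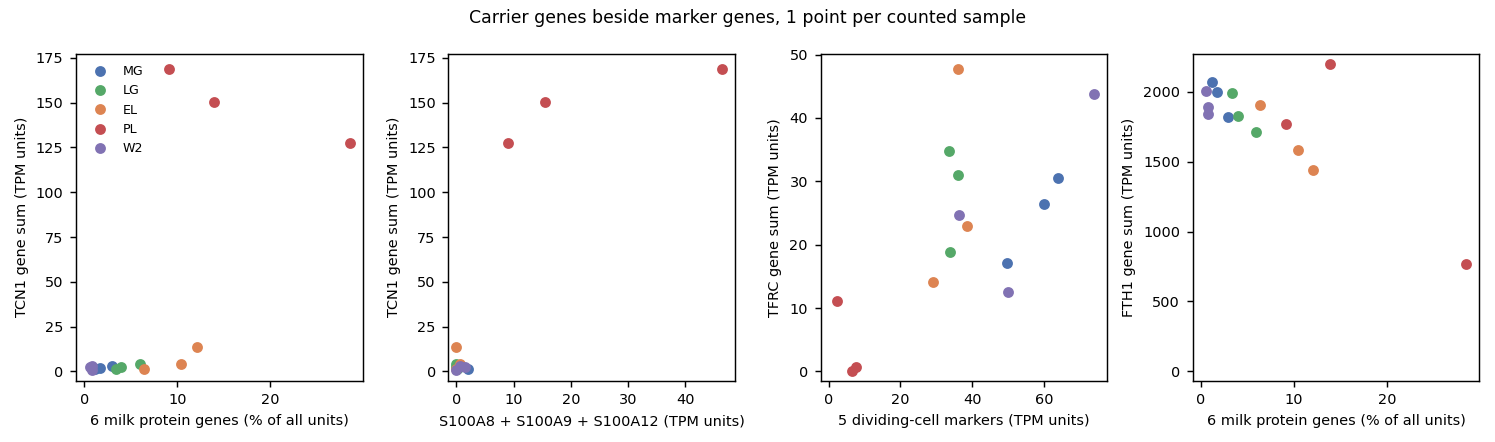
Gene sums of TCN1, TFRC and FTH1 (y axes, TPM units) against marker genes in the same 15 samples (x axes: share of all units on 6 milk protein genes in percent, summed units of S100A8, S100A9 and S100A12, or summed units of 5 dividing-cell markers), 1 point per counted sample, coloured by stage. PL samples with 9.14% to 28.5% milk protein hold 127 to 169 units of TCN1 while EL samples with up to 12.1% hold 13.7 or less, and the 3 PL samples lie lowest in both TFRC and dividing-cell markers.

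FOLR1 encodes folate receptor alpha, a cell-surface folate binder whose shed form carries folate in milk. The main record lies on chromosome 9 from 6746014 to 6750431. Its transcripts summed to 134, 115 and 65.5 units in PL, to 82.3, 86.5 and 69.7 in MG, to 61.2, 49.9 and 87.6 in LG, to 56.8, 44.4 and 41.9 in EL, and to 52.6, 74.5 and 88.7 in W2. PL overlapped every stage except EL, whose 3 samples were all lower. PL and EL had no overlap in 18.8% of all genes and loci.

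By mean the order was PL (105 units), MG (79.5), W2 (71.9), LG (66.3) and EL (47.7), and no pair of stages passed. The difference came closest in PL vs EL, at a log2 fold change of 1.08 ± 0.29 with an adjusted p of 0.054. PL 6 was lower than PL 2 and PL 3, and without it the difference was 1.38 (adjusted p = 0.014), with PL vs LG (0.94, adjusted p = 0.034) and W2 vs PL (-0.81, adjusted p = 0.035) also passing. Under median ratio scaling FOLR1 passed in PL vs EL (1.42, adjusted p = 0.025), PL vs LG (1.13, 0.047) and W2 vs PL (-1.24, 0.025).

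The FOLR1 sum was spread over several transcripts whose shares differed between sows of a stage. XM_013999144.2 held 93.2% of the units in MG, 91.9% in EL, 80.6% in PL and in W2, and 52.8% in LG. In LG it ranged from 27.3% to 87.7% of the gene, and XM_005653647.2 held 33.9%, with 20.9, 5.26 and 41.1 units in LG 1, LG 3 and LG 4. NM_213830.1 was listed at 0 in 14 of 15 samples and at 21.6 units in LG 1. How the units of 1 locus were divided among overlapping transcripts is an estimate, so the sum is the firmer value. Transcripts assembled by the authors were summed apart, so units on any that overlap a gene are missing from its sum. Whether this bears on a low value of a gene or transcript was not tested.

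The second FOLR1 record, on chromosome 9 from 6753513 to 6760433, was near the floor of the table. Its only transcript with a row, XM_013999190.2, did not exceed 0.926 units in any sample and was listed at 0 in 7 of 15. Reads shared between these neighbouring records could be assigned to either.

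Of the zinc exporters SLC30A4 and SLC30A5, only SLC30A5 passed in any comparison. SLC30A4 encodes ZnT4, whose loss in mice makes milk too poor in zinc for the pups, and lies on chromosome 1 from 126236971 to 126268102. It read 16.7, 7.10 and 23.8 units in MG, 2.52, 9.65 and 26.9 in LG, 30.1, 19.0 and 16.5 in EL, 17.9, 17.8 and 4.91 in PL, and 26.6, 11.3 and 28.8 in W2. All stages overlapped, with up to a 10.7-fold gap between the 3 sows of LG, and no comparison passed (PL vs MG -0.27 ± 0.75, adjusted p = 0.84, turning to 0.38 under median ratio scaling).

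The lowest SLC30A4 values, in LG 1 and PL 6, came with a change of transcript, while the spread within MG and W2 did not. XM_021089600.1 held 94.7% or more of the gene in every MG, EL and W2 sample. It was listed at 0 in LG 1 and stood at 0.357 units in PL 6, and in those samples NM_001130972.1 held 100% and 92.7%.

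SLC30A5 encodes ZnT5, which loads zinc into the early secretory pathway, and lies on chromosome 16 from 47284974 to 47320892. Its transcript NM_001137624.1 read 20.9, 30.0 and 21.1 units in MG, 18.5, 21.1 and 23.8 in LG, 23.0, 18.5 and 17.0 in EL, 16.0, 18.7 and 16.2 in PL, and 22.3, 33.6 and 31.8 in W2. All 3 W2 samples were above all 3 PL samples, and 44.0% of all genes and loci had no overlap between these stages. W2 was higher than PL by 0.75 ± 0.21 on the log2 scale (adjusted p = 0.016), which is 0.071 above the median gene in that comparison. Under median ratio scaling the difference was 0.032 (adjusted p = 0.95), and PL then stood above MG, LG and EL by 0.18, 0.19 and 0.15 in place of below. The call was also lost without W2 3 (adjusted p = 0.063) or W2 6 (0.056).

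SLC39A8 encodes ZIP8, an importer of zinc, manganese and iron, and lies on chromosome 8 from 118604852 to 118678115. It read 67.3, 151 and 197 units in PL, 51.2, 60.3 and 51.1 in MG, 61.2, 51.4 and 81.6 in LG, 74.3, 60.5 and 54.9 in EL, and 62.2, 79.7 and 61.9 in W2. PL 3 and PL 6 were above all 12 samples of the other stages, while PL 2 lay among them and was above all 3 MG samples. No overlap between PL and MG was seen in 39.2% of all genes and loci.

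The level of SLC39A8 was 2.32-fold higher in PL than in MG (log2 fold change 1.21 ± 0.32, adjusted p = 0.017), and 1.78 above the median gene. It was 0.98 higher than in LG (adjusted p = 0.058) and 1.00 higher than in EL (0.10), and fell by 0.90 from PL to W2 (0.048). After median ratio scaling all 4 comparisons passed, with log2 differences of 1.88 against MG, 1.48 against LG, 1.34 against EL and -1.63 in W2 vs PL. As deposited, the call in W2 vs PL was lost when any sample other than PL 2 was left out (adjusted p up to 0.17, without PL 6). The call against MG was lost without MG 6 (0.053) or PL 6 (log2 0.89, adjusted p = 0.050), and without PL 2 the differences from LG and EL also passed (1.43, adjusted p = 0.0017, and 1.45, 0.0021). The order of the other 4 stages, W2, LG, EL and MG, covered 67.9 to 54.2 units, and no pair of them passed.

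The increase in PL lay mostly on XM_021101717.1, with 53.4, 90.4 and 171 units in PL and 22.9 to 55.1 in the other samples, so that only PL 2 overlapped them. Its log2 difference was 1.46 ± 0.44 in PL vs MG (adjusted p over transcripts = 0.082) and -1.52 in W2 vs PL (0.054). XM_013979001.2 read 13.9, 32.0 and 26.0 units in PL, within the range of 2.94 to 27.2 elsewhere except for PL 3. XM_021101718.1 was listed at 0 in 5 samples, among them PL 2 and PL 6, and held 32.7% of the gene in W2.

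TFRC encodes transferrin receptor 1, the route by which cells take up transferrin-bound iron, and is abundant on dividing cells and red cell precursors. It lies on chromosome 13 from 133976765 to 133997554. Its transcript NM_214001.1 read 0.759 units in PL 2, was listed at 0 in PL 3, and read 11.1 units in PL 6. It read 17.1, 30.5 and 26.5 units in MG, 18.9, 31.1 and 34.8 in LG, 47.7, 22.9 and 14.2 in EL, and 24.7, 12.6 and 43.7 in W2. All 3 PL samples were below the other 12, which was true of 11.3% of all genes and loci, although PL 6 and W2 3 were close. Under median ratio scaling (factors 0.840 for PL 6 and 1.24 for W2 3) W2 3 fell below PL 6, so the separation was not complete. Units on assembled transcripts overlapping TFRC, if any, would be missing from these values.

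On the log2(units + 0.5) scale TFRC differed by -3.66 ± 0.90 in PL vs MG (adjusted p = 0.012), -3.84 in PL vs LG (0.015), -3.72 in PL vs EL (0.036) and 3.65 in W2 vs PL (0.0091). It was 3.09 below the median gene in PL vs MG. These sizes rest on the pseudocount because of the 0 in PL 3: in PL vs MG the difference was -4.61 with 0.1 added and -3.17 with 1 added, and without PL 3 it was -2.68 (adjusted p = 0.034). NM_214001.1 was a DET against MG and LG and in W2 vs PL. Under median ratio scaling all 4 differences passed, at -3.17, -3.52, -3.55 and 3.11. The call in PL vs EL was lost when any 1 of 12 samples was left out (adjusted p 0.052 to 0.15), and that in PL vs LG without LG 4 (0.062) or PL 2 (0.050). The other 4 stages lay between 24.7 and 28.3 units by mean, and none of their 6 comparisons had an adjusted p below 0.98.

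Markers of dividing cells were low in the same samples as TFRC. The 5 markers summed to 7.71, 6.49 and 2.46 units in PL 2, PL 3 and PL 6 and to 29.2 to 74.1 in the other 12 samples. TOP2A, the topoisomerase of replicating cells, read 2.98, 2.42 and 1.18 units in PL against 10.3 to 29.5 elsewhere, and CDK1 and BUB1, which drive and guard mitosis, were listed at 0 in 2 and 3 of the PL samples. MKI67 read 0.240 to 1.20 units in PL and 0.363 to 4.04 elsewhere. Within PL the order did not match, since PL 6 had the highest TFRC and the lowest marker sum. Low markers in PL were not particular to dividing cells. The 3 fat cell markers with a row summed to 253 to 388 units in PL and 444 to 732 elsewhere, though in PL vs MG 1 passed as higher and 1 as lower. Of 6 fibroblast markers 5 passed in PL vs MG, all lower, beside 23.0% of all genes and loci. Of 6 red cell markers only HBB and ALAS2 had rows, and their sum ran from 46.5 to 92.8 units in PL and from 38.3 to 284 in the other samples. The part of any of these cells in the TFRC level was not tested.

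SLC40A1 encodes ferroportin, the cellular iron exporter, and lies on chromosome 15 from 94140635 to 94161793. It read 6.46, 17.0 and 13.5 units in PL, 23.1, 24.4 and 21.7 in MG, 19.3, 14.3 and 25.1 in LG, 20.2, 17.0 and 12.6 in EL, and 21.7, 25.7 and 23.6 in W2. PL was below all MG and all W2 samples and overlapped LG and EL. Of all genes and loci, 39.2% had no overlap between PL and MG and 44.0% none between PL and W2. By mean the order ran W2, MG, LG, EL and PL, from 23.6 to 12.3 units, and only PL against W2 and PL against MG passed.

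SLC40A1 was lower in PL than in MG by a log2 of 0.98 (log2 fold change -0.98 ± 0.31, adjusted p = 0.037), and higher in W2 than in PL by 1.01 (0.026). Relative to the median gene these differences were -0.41 and 0.33, and under median ratio scaling they were -0.33 (adjusted p = 0.39) and 0.31 (0.41). PL 2, with 6.46 units, carried much of them: without it they were -0.59 (adjusted p = 0.10) and 0.62 (0.074). The call against MG was also lost without any 1 of the MG samples (adjusted p 0.074 to 0.10), and that against W2 without W2 3 (0.076) or W2 6 (0.063). Without PL 3 the difference from LG passed (-0.99, adjusted p = 0.048). XM_003483701.4 held 82.9% to 88.9% of the gene in every stage and XM_013984335.2 the remainder.

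FTH1 encodes the heavy chain of ferritin, which oxidises iron for storage, and lies on chromosome 2 from 9535051 to 9537979. Per unit length it was by far the most abundant of the members, at rank 40 to 83 of the 14958 annotated genes depending on the stage. Its transcript with a row, XM_005660803.3, read 1821, 2072 and 1996 units in MG, 1826, 1710 and 1990 in LG, 1907, 1440 and 1586 in EL, and 1893, 2007 and 1838 in W2. In PL it read 768 in PL 2, the lowest of all 15 samples, and 2201 in PL 3, the highest, with 1769 in PL 6.

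No comparison of FTH1 passed. The log2 fold change was -0.44 ± 0.29 in PL vs MG (adjusted p = 0.28) and 0.41 in W2 vs PL (0.29). Without PL 2 these were 0.0099 (0.99) and -0.046 (0.84). Under median ratio scaling they were 0.23 (0.47) and -0.33 (0.26), so that no direction held for FTH1 between PL and the other stages. PL 2 was also the sample with the largest milk protein share (28.5%), and the part of that share in its FTH1 level was not tested.

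**Figure D4:**
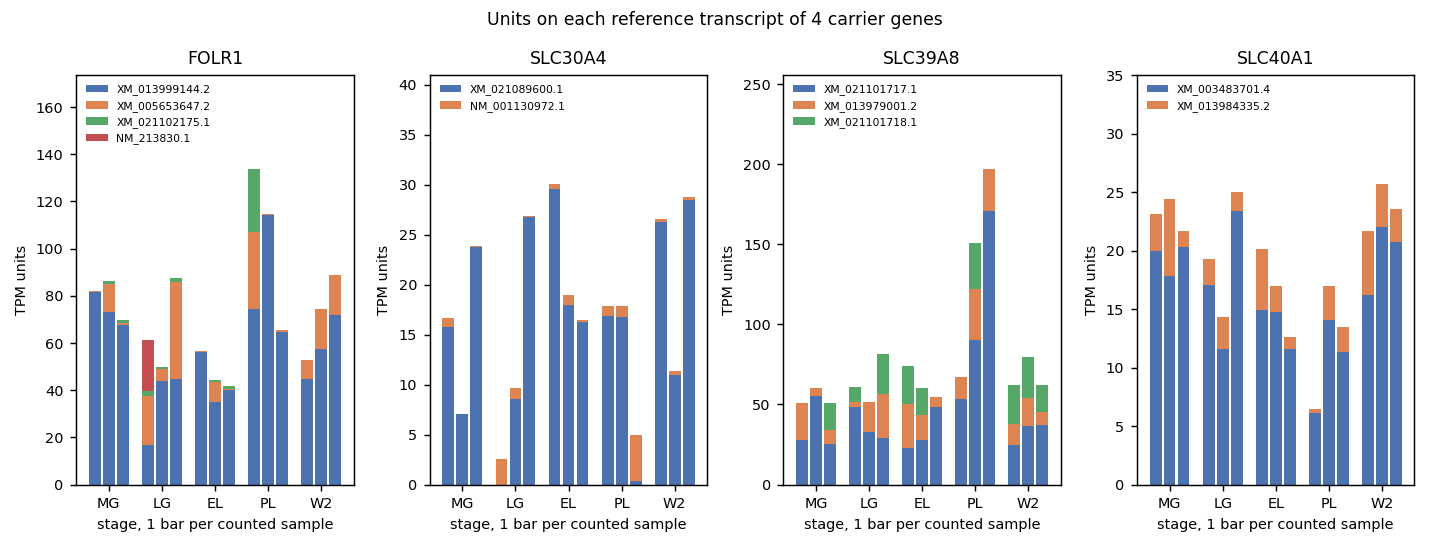
TPM units on each reference transcript (stacked, y axis from 0) of FOLR1, SLC30A4, SLC39A8 and SLC40A1, with 1 bar for each of the 3 counted samples of a stage in the order of their sample numbers. The SLC30A4 bars of LG 1 and PL 6 hold almost only NM_001130972.1, and the tall SLC39A8 bars of PL 3 and PL 6 are mostly XM_021101717.1.

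Several members varied together over the 15 counted samples, which is given as a description because all points share the scaling to a fixed total. On log2(units + 0.5), FTH1 and SLC40A1 had a Pearson r of 0.85, both lowest in PL 2. SLC30A5 and SLC40A1 had an r of 0.74, TCN1 and SLC39A8 0.70, and TCN1 and TFRC -0.80. SLC30A4 had no r beyond 0.25 in size with any other member.

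For each member the 3 most similar genes were taken from 12357 annotated genes by the same r over the 15 samples. TCN1 was closest to SAA3 (0.97) and LBP (0.94), acute-phase proteins that bind lipid and bacterial lipopolysaccharide, and to the muscle myosin MYH2 (0.93). SLC39A8 was closest to CD14 (0.93), the co-receptor for lipopolysaccharide, then to LOC100514834 and SERPINA11 (both 0.92). TFRC was closest to PUM3, KAT6A and TERF2 (0.95, 0.95 and 0.94). SLC40A1 was closest to ASF1A, ADH5 and USF2 (0.97, 0.96 and 0.96), SLC30A5 to SARS, WDR36 and FAM171B (0.97, 0.95 and 0.94), and FTH1 to ENC1, ARID5A and ANXA2 (0.97, 0.97 and 0.96). FOLR1 reached 0.81 with ADAMTS1, 0.78 with RER1 and 0.78 with KLHDC4, and SLC30A4 0.81 with NDRG4, 0.76 with EML1 and 0.75 with VWA5A.

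The other genes of the same routes were taken from 8 lists of vitamin, zinc and iron carriers, of whose 102 genes 78 had a row. Without the members these made 71 gene records. In PL vs MG 18 of the 71 passed, 3 higher and 15 lower in PL, with a median log2 fold change of -0.36 against -0.57 for all genes. These were 25.4% of the records, beside 25.2% of all genes and loci. In PL vs LG 8 passed (11.3%, beside 14.7%) and in PL vs EL 2 (2.82%, beside 4.62%). In W2 vs PL 25 passed, 20 higher and 5 lower in W2, with a median of 0.38 against 0.68, which were 35.2% of the records beside 32.8% of all. Median ratio scaling changed the split, to 8 higher and 4 lower in PL vs MG and to 6 higher and 10 lower in W2 vs PL. With single samples left out, 10 of the 18 calls against MG and 14 of the 25 in W2 vs PL held every time. The count fell to 12 in PL vs MG without MG 3 or MG 6 and to 14 in W2 vs PL without W2 6. In PL vs LG 4 of the 8 calls held every time, and the count ran from 4 without LG 4 to 13 without PL 2. Without PL 2 it was 10 higher and 12 lower in PL vs MG, and 9 in PL vs EL.

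**Figure D5:**
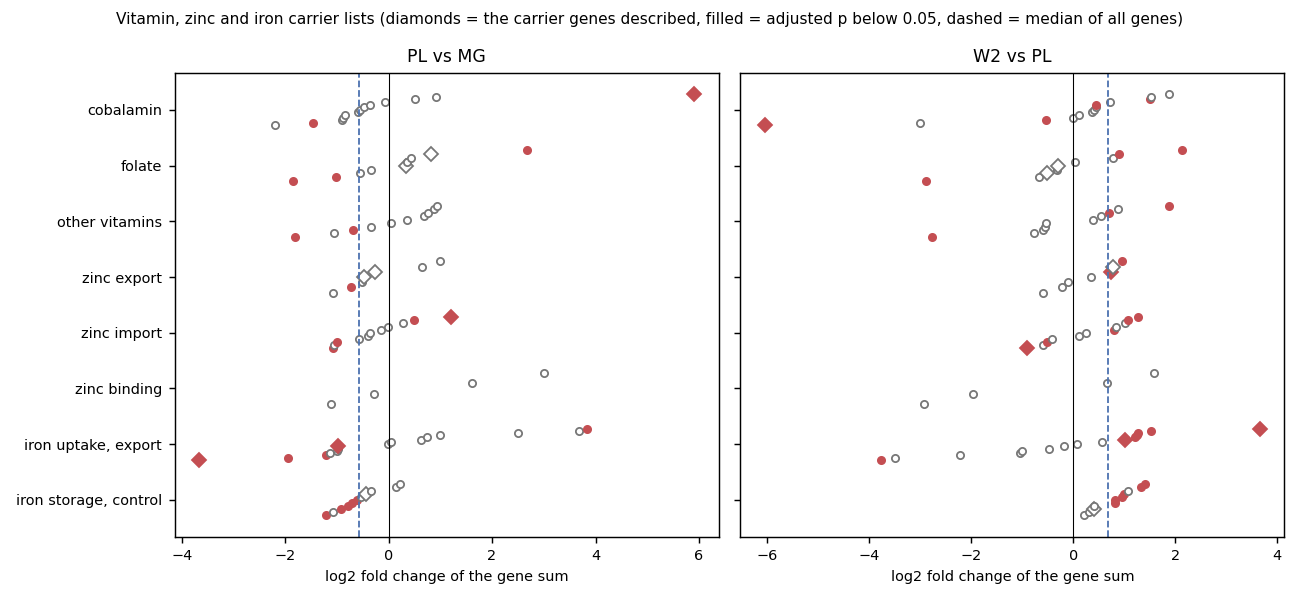
Log2 fold change of each gene sum (x axis) in PL vs MG and W2 vs PL for 8 lists of vitamin, zinc and iron carriers (rows), 1 point per gene record, diamonds for the genes described above, filled where the adjusted p was below 0.05. The dashed line is the median of all genes and loci, -0.57 and 0.68. TCN1 and TFRC are the outermost filled points of the left panel and again of the right one.

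Among 13 B12 genes with a row, 2 passed in PL vs MG, and TCN1 was the only one higher. The counts of this and the following lists stand beside 25.2% of all genes and loci that passed in PL vs MG (2.23% higher and 23.0% lower) and 32.8% in W2 vs PL. LRP2, the megalin receptor that takes up transcobalamin, was low throughout and listed at 0 in PL 2 and PL 3, with 0.0188 units in PL 6 and 0.565, 1.14 and 1.05 in MG (log2 fold change -1.46 ± 0.32, adjusted p = 0.0069). In W2 vs PL 4 passed: TCN1 and MMAB, the adenosyltransferase that makes the mitochondrial cofactor, were lower in W2, and LRP2 and LMBRD1, which lets B12 out of the lysosome, were higher. MMAB read 6.64, 6.26 and 6.12 units in PL and 3.63 to 5.06 in the other samples. LMBRD1 turned direction under median ratio scaling, from 0.45 (adjusted p = 0.043) to -0.26 (0.20). The calls of MMAB and LMBRD1 were each lost without any 1 of 10 samples (adjusted p up to 0.11), and those of LRP2 held without any 1 sample.

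Folate genes moved both ways, with 3 of 9 records passing in PL vs MG. FOLR2, folate receptor beta, known from macrophages and placenta, read 95.0, 108 and 119 units in PL against 9.59 to 54.9 in the other 12 samples. It was 2.68 ± 0.49 higher in log2 than in MG (adjusted p = 0.0026), 1.63 higher than in LG (0.043, lost without any 1 of 10 samples), and fell by 2.89 in W2 (0.0013). FPGS, which adds the glutamate tail that traps folate in the cell, went the other way, at 6.77, 8.54 and 5.15 units in PL and 12.6 to 37.8 elsewhere, and passed in all 4 comparisons with PL (-1.85 ± 0.26 in PL vs MG, adjusted p = 0.00061). Among macrophage markers, CSF1R, C1QA and C1QB were lower in PL than in MG by log2 differences of -2.29, -1.54 and -1.52, and CD14 was higher by 3.52. All 6 macrophage markers with a row summed to 94.3 to 418 units in PL and 134 to 359 in the other samples. Their part in the FOLR2 level was not tested.

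Of 10 records for other vitamins, 2 passed in PL vs MG, both lower. SLC19A2, a thiamine transporter, read 1.45, 6.98 and 6.51 units in PL and 6.68 to 16.9 elsewhere (-1.80 ± 0.44, adjusted p = 0.012). SLC52A2, a riboflavin transporter, differed by -0.68 (0.027), which was -0.043 under median ratio scaling (0.93) and was lost without MG 1, MG 3, MG 6 or PL 2 (0.054 to 0.089).

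The median log2 fold change in PL vs MG was -0.47 for zinc exporters and -0.36 for importers, beside -0.57 for all genes. Of 7 exporters with a row, 1 passed in PL vs MG, SLC30A9, which moves zinc out of mitochondria (-0.73, adjusted p = 0.014, 0.053 without MG 3, and -0.077, 0.73, under median ratio scaling). Of 11 importers 4 passed: SLC39A8 and SLC39A7, which releases zinc from the endoplasmic reticulum, were higher in PL, and SLC39A6 and SLC39A10 lower. SLC39A7 read 100.3, 117 and 127 units in PL and 70.8 to 106 elsewhere, 0.50 ± 0.13 above MG (adjusted p = 0.019, and 0.065 without MG 6). The calls of SLC39A6 (-1.07, 0.0095) and SLC39A10 (-0.99, 0.012) were lost under median ratio scaling (0.10 and 0.19). Of 4 zinc-binding genes 0 passed in limma in any comparison with PL, with 2 at an unadjusted p below 0.05 against LG, 2 against EL and 0 in the others (31.6% and 19.0% of all genes and loci against LG and EL).

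Of 15 iron uptake and export records, 5 passed in PL vs MG. TFRC and SLC40A1 were lower together with STEAP3, the endosomal reductase that acts on iron delivered by the transferrin receptor, and SLC22A17, a receptor for the siderophore-binding protein lipocalin 2. STEAP3 read 48.5, 65.4 and 69.7 units in PL and 105 to 159 elsewhere, and passed in all 4 comparisons with PL (-1.21 ± 0.19 in PL vs MG, adjusted p = 0.0012). Its call held under median ratio scaling while that of SLC22A17 did not (0.073). CP, ceruloplasmin, the plasma ferroxidase that works with ferroportin, was higher: it read 0.188, 30.3 and 19.5 units in PL and 0.0871 or less in each MG, LG and W2 sample, with EL 4 at 1.97. PL 2 was thus within the range of EL. The log2 difference was 3.83 ± 1.08 in PL vs MG (adjusted p = 0.023), 5.56 without PL 2 and 2.81 without PL 3, and its call was lost without PL 3, PL 6 or any MG sample (0.055 to 0.072).

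Of 11 iron storage and control records, 5 passed in PL vs MG and all were lower, beside 23.0% of all genes and loci. The median of the list was -0.62, beside -0.57 for all. FTL, the ferritin light chain, read 704, 1184 and 1213 units in PL and 1397 to 2055 elsewhere (-0.93 ± 0.18, adjusted p = 0.0042). Its difference shrank to -0.26 (0.073) under median ratio scaling, where FTH1 stood at 0.23, and whether the ferritin chains differed from each other was not tested. FBXL5, the iron-sensing ubiquitin ligase that degrades an iron regulatory protein, read 17.2, 32.6 and 31.4 units in PL and 39.3 to 75.7 elsewhere (-1.21 ± 0.21, adjusted p = 0.0021), and its call held under that scaling. NCOA4, which delivers ferritin for breakdown, and PCBP1, which loads iron into ferritin, differed by -0.62 (0.030) and -0.71 (0.018). Under median ratio scaling these were 0.047 and -0.042, and both calls were lost without MG 3 or MG 6 (adjusted p 0.050 to 0.096), that of NCOA4 also without PL 2 (0.071). HMOX1, heme oxygenase, was the fifth (-0.79, adjusted p = 0.041), named after its value was seen. That call was lost without any 1 of 9 samples (adjusted p up to 0.14).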

How the data were processed

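RNA was sequenced from mammary tissue of 30 sows. Per the labels, the authors used FastQC, Trimmomatic and HISAT2 with the Sscrofa11.1 build, and their methods add SAMtools, StringTie, a minimum FPKM of 0.5 in at least 1 stage and RUVs. Whether the deposited values include RUVs is not stated. The authors call the values FPKM, but each deposited column adds up to a fixed total as TPM values do, so they were treated as TPM. No reads per transcript were used, so the depth behind each value is unknown, though the study lists mapped reads for each library.

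Identifiers were matched to the Sscrofa11.1 RefSeq annotation (32726 of 61773 transcripts, the other 29047 assembled by the authors). Values of a gene's reference transcripts were summed and analysed as log2(units + 0.5) with limma 3.58.1 in R 4.3.3 (trended variance, 5 stages in 1 fit, 3 counted samples per stage, 10 comparisons, Benjamini-Hochberg adjustment over all features). Tables and figures used Python 3.11.15, pandas 2.3.3, numpy 2.4.6 and matplotlib 3.10.9. The code was tested on simulated data. Sample numbers did not pair the stages. Members and gene lists were chosen with earlier results of these data known. All members are named, with transcripts of at least 10% of a gene in some stage, up to 4 passing genes per list by adjusted p, and the 3 genes most like each member. Markers of other cells were named where their level moved with a member, and HMOX1, MT1A and MT1D after their values were seen. Alternatives were pseudocounts of 0.1 and 1, a mean of at least 1 unit, median ratio scaling, quantile normalization, all 6 samples per stage, the near-identical samples counted once, the compared stages alone, a replicate block, each counted sample left out and the highest transcript of a gene. Median ratio scaling used 2698 transcripts of at least 10 units in every counted sample. Promoter motifs and protein sequences were not analysed here. A gene of the carrier lists is not reported here.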

Additional observations from a re-analysis of the deposited data

How the results depend on the processing

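TCN1 kept its direction in all alternatives and all 4 of its calls in all but 1, losing PL vs EL when the compared stages were fitted alone (adjusted p = 0.12). TFRC kept its direction in every alternative, lost all 4 calls when the stages were fitted alone (adjusted p 0.11 to 0.36) and lost the calls against MG, LG and EL with a replicate block (0.056, 0.097 and 0.17). Over all members, comparisons with PL and alternatives, 740 values kept their direction and side of the threshold, 35 gained a call, 59 lost one and 26 turned direction. The cause of these changes was not tested. Of the 740, 487 came from leaving out 1 sample, which need not belong to a compared stage. Of the 35, 12 came with all 6 samples per stage and 7 with near-identical samples counted once. The samples added there nearly equal the mean of the counted 3 and are not independent of them. With 3 samples per stage and no read counts, differences of low or listed-at-0 transcripts could not be resolved.

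The number of members that passed was as follows, against 4 in PL vs MG, 2 in PL vs LG, 2 in PL vs EL and 5 in W2 vs PL as reported. Median ratio scaling gave 4 in PL vs LG and 4 in PL vs EL, and quantile normalization 4 and 5. All 6 samples per stage, copies included, gave 7 in PL vs MG, 6 in PL vs LG, 5 in PL vs EL, 4 in EL vs MG, 2 in EL vs LG, 1 in W2 vs LG, 4 in W2 vs EL and 7 across the 5 stages. Counting the near-identical samples once gave 5 in PL vs LG, 4 in PL vs EL, 1 in EL vs MG, 2 in W2 vs EL and 6 across the 5 stages. The compared stages alone gave 1 in PL vs MG, 1 in PL vs LG, 0 in PL vs EL and 1 in W2 vs PL. The highest transcript of each member gave 2 in PL vs MG, 1 in PL vs EL and 2 in W2 vs PL.

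Of member transcripts, 2 were DETs in PL vs MG, 2 in PL vs LG, 1 in PL vs EL and 2 in W2 vs PL. With all 6 samples there were 2 in LG vs MG, 2 in EL vs LG, 4 in PL vs LG, 3 in PL vs EL, 1 in W2 vs LG, 1 in W2 vs EL and 4 in W2 vs PL, and with near-identical samples counted once 3 in PL vs EL. There was 1 in PL vs LG with a pseudocount of 0.1, median ratio scaling, quantile normalization or the stages alone, 1 in PL vs MG with quantile normalization or the stages alone, and 0 in PL vs EL and 1 in W2 vs PL with the stages alone.

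Each sow gave 1 sample, and sample numbers did not pair the stages. Over 19 same-numbered pairs the correlation of deviations ran from -0.099 to 0.137, with 5 above 0.1. Over 71 pairs with other numbers it ran from -0.109 to 0.182, with 14 above 0.1. With the replicate block, 2 members passed in PL vs MG, 1 in PL vs LG, 1 in PL vs EL and 1 across the 5 stages, 5 in W2 vs PL, and 1 transcript was a DET in PL vs MG, 1 in PL vs LG and 1 in W2 vs PL. FTH1 in PL vs EL turned to 0.032 under the block. Of the 71 other carrier records, the block left 10 calls in PL vs MG, 2 in PL vs LG, 0 in PL vs EL and 22 in W2 vs PL.

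Leaving out 1 sample at a time gave 2 to 4 members in PL vs MG, 1 to 3 in PL vs LG, 1 to 3 in PL vs EL, 2 to 5 in W2 vs PL, 1 to 3 across the 5 stages and 0 in each other comparison, and 1 to 3 DETs in each comparison with PL. The lowest counts came without MG 6 in PL vs MG (2), LG 4 in PL vs LG (1), each of 11 samples in PL vs EL (1), and W2 3 or W2 6 in W2 vs PL (2).

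Directions that turned were all of differences that had not passed. Under median ratio scaling and quantile normalization SLC30A4 turned to 0.38 and 0.30 in PL vs MG, and SLC30A5 to 0.18 and 0.091 against MG, 0.19 and 0.13 against LG, and 0.15 and 0.047 against EL. FTH1 turned to 0.23 and 0.43 against MG, 0.15 and 0.49 against LG, 0.17 and 0.47 against EL, and -0.33 and -0.45 in W2 vs PL, passing under quantile normalization (adjusted p 0.024 to 0.040). With all 6 samples the second FOLR1 record turned to 0.019 in W2 vs PL. With 1 sample left out, FTH1 ran from -0.75 to 0.0099 in PL vs MG, -0.66 to 0.10 in PL vs LG, -0.49 to 0.27 in PL vs EL and -0.046 to 0.71 in W2 vs PL, SLC30A4 from -0.74 to 0.32 in PL vs MG and -0.45 to 1.14 in PL vs LG, and the second FOLR1 record from -0.80 to 0.057 in W2 vs PL.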

Other observations

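The 3 PL sows took the same order in several carrier and marker genes. As deposited, TCN1, SLC39A8 and the sum of S100A8, S100A9 and S100A12 were lowest in PL 2, higher in PL 3 and highest in PL 6. The metallothioneins MT1A and MT1D, small proteins that bind zinc and copper, did the same, with MT1A listed at 0 in PL 2 and at 24.6 and 57.1 units in PL 3 and PL 6, and MT1D at 0.646, 32.3 and 120 units. In the other 12 samples MT1A did not exceed 1.89 units and MT1D did not exceed 9.11. LRAT, which esterifies retinol for storage, and the milk protein share took the reverse order, LRAT with 32.6, 10.1 and 5.46 units. Under median ratio scaling TCN1 did not keep the order it shared with SLC39A8, and was highest in PL 2 and lowest in PL 3. MT1A, MT1D and this order were picked after their values were seen, 3 samples in 1 order are given as values only, and neither metallothionein passed in PL vs MG (adjusted p = 0.13 and 0.40).

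CP and STEAP3, which act on iron outside the cell and in the endosome, differed in how evenly the PL sows showed their change. STEAP3 lay between 48.5 and 69.7 units in all 3, below every other sample, whereas CP was high in PL 3 and PL 6 (30.3 and 19.5 units) and near the other stages in PL 2 (0.188 units).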
